A study of Mus musculus with 11 samples.

Results

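Ribosome-bound RNA from mice that self-administered cocaine was compared with that from mice that self-administered saline, gene by gene. The comparison takes the 3 immunopurified (IP) libraries of the cocaine group and the 3 of the saline group, 6 of the 11 libraries of the series, with the replicate number (1, 2 or 3) as a block. All 32531 genes in the count files were members, and 15892 of them passed the filter on low counts and were tested. Libraries were chosen by their labels and not by any measured value. All mice were adult carriers of the Glt25d2-EGFP/Rpl10a transgene, line DU9, and took part in a short-access intravenous study. The cocaine group self-administered cocaine and its control group saline. A further group of 3 IP libraries came from yoked controls, whose levels are given for some genes; the sources used here do not say what the yoked mice received. The labels name cerebral cortex as the tissue, but the extraction text names the striatum. Neither the sex of the mice nor any pooling is stated. Nothing states that the replicates came from separate animals. With the block, p-values measure only how the cocaine to saline difference varied between the 3 replicate numbers. That spread may be technical. Cocaine libraries ran on lane 2, yoked libraries on lane 3 and saline libraries on lane 6, so lane and treatment cannot be told apart. Each replicate number also used the same index in every group.

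TRAP (translating ribosome affinity purification) pulls a tagged ribosomal protein out of a tissue homogenate together with the RNA that the ribosomes were reading. Only cells that make the tag should contribute. The tag here, EGFP fused to the ribosomal protein L10a, is driven by regulatory sequence of Glt25d2, a gene now called Colgalt2, in deep cortical pyramidal neurons that project to the brainstem and spinal cord. Cocaine blocks the reuptake of dopamine, noradrenaline and serotonin. In rodent forebrain, its best-known transcriptional effects are on immediate early genes, peptide precursor genes, glutamate receptors and chromatin enzymes.

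Library depth was 33633470 to 42613969 gene counts in cocaine and 37812193 to 53862653 in saline. The libraries numbered 1 stood apart from those numbered 2 and 3 in both groups. Over the saline input library, the median log2 ratio of 19 layer 5 markers was 0.65, 0.01 and -0.13 in cocaine replicates 1, 2 and 3, against 1.0, -0.02 and 0.19 in saline replicates 1, 2 and 3. For 8 nuclear noncoding RNAs, which ribosomes should not hold, it was -4.45, 0.05 and -0.72 in cocaine and -3.70, 0.03 and 0.11 in saline. By these markers the libraries numbered 2 and 3 were close to the input, except cocaine replicate 3 for the nuclear RNAs (-0.72). Reads outside annotated genes were a smaller share in cocaine in each number, at 6.28%, 13.5% and 10.3%, against 7.29%, 14.4% and 13.4% in saline. Markers of cortical layers were present, with the layer 5 list summing to 1085 to 1819 CPM (counts scaled to a common library size) in cocaine and 1221 to 2160 CPM in saline. The 16 markers of striatal projection neurons, several of which cortical cells also express, summed to 606.3 to 997.8 CPM in cocaine and 626.1 to 1098 CPM in saline.

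No gene differed between cocaine and saline at an adjusted p under 0.05. The edgeR quasi-likelihood test with Benjamini-Hochberg adjustment called 0 genes higher (0%) and 0 lower (0%), and its lowest adjusted p was 0.24. At an unadjusted p under 0.05, 907 genes stood above saline (5.71%) and 970 below (6.1%), together 1877 (11.8%). With libraries scaled by their totals alone, 1166 stood above and 829 below at that threshold. Cocaine exceeded saline in all 3 replicate numbers for 3020 genes (19%) and lay below it in all 3 for 2649 (16.7%). All 3 cocaine libraries lay above all 3 saline libraries for 494 genes (3.11%) and below them for 358 (2.25%). The log2 difference was above 0 in 8339 genes (52.5%) and below 0 in 7553 (47.5%). Most differences were small, with a median size of 0.19 on the log2 scale, and 144 genes were at least 2-fold above and 207 at least 2-fold below saline.

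The count of 0 depended on the tool and on which libraries entered. DESeq2 with the same block called 1 gene higher and 28 lower. Without a filter on low counts, edgeR called 28 higher and 84 lower, among them all 29 of the DESeq2 calls. Leaving out both libraries of number 1, 2 or 3 gave 13, 20 or 3 higher and 69, 116 or 4 lower, each with 1 residual degree of freedom. With no replicate block 0 were called, and leaving out any single library without the block also gave 0. In counts simulated at these depths, the blocked test recovered 98 of 100 genes changed by 2-fold and 55 of 100 changed by 1.5-fold. It also called 7 unchanged genes. The changed genes all had a mean of at least 5 CPM, so the recovery does not cover scarcer genes. In the simulation 200 genes were changed at once, which makes the adjusted threshold easier to pass. The recovery therefore does not cover data in which few genes change. Counts were drawn gene by gene around fitted means, so shifts shared by many genes within a library were not simulated.

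**Figure D1:**
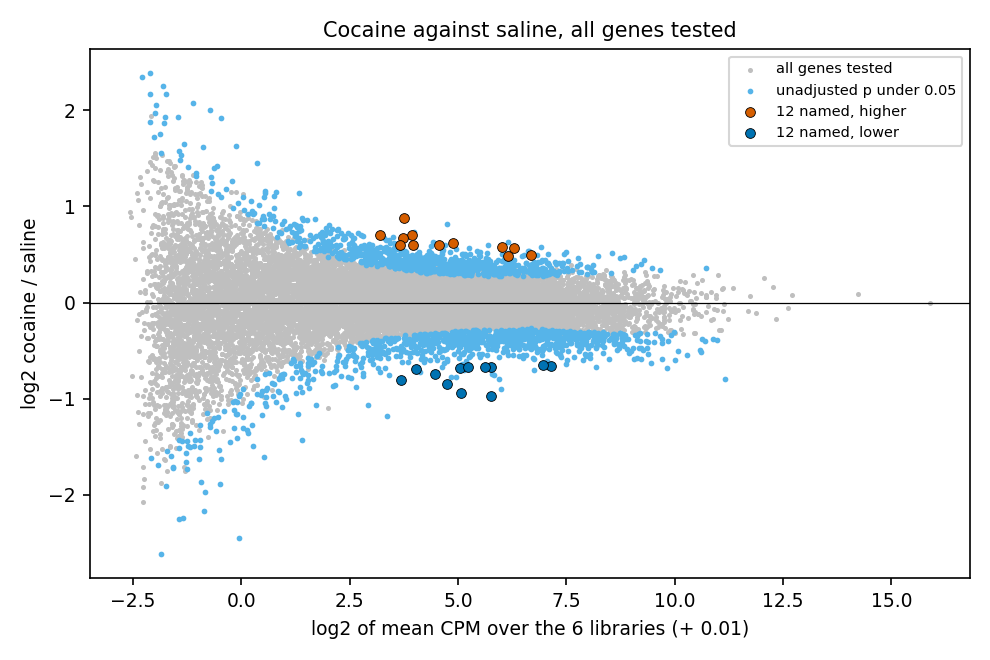
Each point is 1 of the 15892 genes, with the log2 of its mean level over the 6 libraries (CPM + 0.01) on the x axis and its log2 cocaine over saline difference on the y axis. Light blue marks the 1877 genes with an unadjusted p under 0.05, none of which passed the adjusted threshold; the ringed points are the 12 named genes above and the 12 below saline.

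Genes were named by rank, the 12 of lowest p in each direction among established symbols with a mean of at least 5 CPM and the same direction in all 3 replicate numbers. None of the 24 passed the adjusted threshold, so the differences below are values and not calls. The 12 above saline had log2 differences of 0.48 to 0.88 and adjusted p of 0.275 to 0.325. In 5 of the 12 the cocaine and saline libraries did not overlap. The naming rule favours such genes, so the lack of overlap adds no support. Of all genes tested, 3.11% had all 3 cocaine libraries above all 3 saline libraries.

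Several of the 12 encode enzymes. Prdx1 (chromosome 4, 116685544 to 116700822, GRCm38), a peroxiredoxin that reduces hydrogen peroxide, was at 125.3, 75.6 and 81 CPM in cocaine replicates 1, 2 and 3, against 71.8, 63.9 and 51.6 CPM in saline. All 3 cocaine libraries were above all 3 saline libraries, and the log2 difference was 0.56 ± 0.14 (SE; adjusted p = 0.295). The related peroxiredoxin Prdx6 was at 101.8, 116.3 and 141.2 CPM in cocaine and 63.9, 97.6 and 95 CPM in saline, again without overlap (0.50 ± 0.13, SE). Gsta4, a glutathione transferase that clears products of lipid peroxidation, was at 115.9, 59.7 and 74.9 CPM in cocaine and 76.2, 47.5 and 52.5 CPM in saline, with overlapping groups (0.48 ± 0.13, SE). The carbonyl reductase Cbr1 was at 130.3, 48.2 and 59.6 CPM in cocaine and 61.4, 44.8 and 41.4 CPM in saline. Its difference lay mostly in number 1, at 1.09 on the log2 scale, against 0.10 in number 2 and 0.52 in number 3.

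Csad, which makes the taurine precursor hypotaurine, was at 19.5, 13.2 and 13.2 CPM in cocaine and 11.1, 9.57 and 9.36 CPM in saline, without overlap (0.59 ± 0.16, SE). The membrane carbonic anhydrase Car4 stood at 23, 17.2 and 16.2 CPM in cocaine and at 12.4, 11.8 and 12.7 CPM in saline, also without overlap (0.60 ± 0.16, SE). Nmral1, a protein that binds NADPH, was the fifth of the genes without overlap, at 16, 9.41 and 8.91 CPM in cocaine and 7.13, 7 and 6.24 CPM in saline (0.71 ± 0.19, SE). Apip, an enzyme of methionine salvage, had the lowest p of the 12 and a log2 difference of 0.70 ± 0.17 (SE; adjusted p = 0.275), but its groups overlapped. The myosin light chain Myl4 (0.60) and the ESCRT-I subunit Mvb12a (0.68) also overlapped. The remaining 2 of the 12, the transcription factor Egr2 and the peptide precursor Npy, belong to gene groups described further on.

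The 12 below saline had log2 differences of -0.98 to -0.65 and adjusted p of 0.24 to 0.255. They include regulators of transcription and chromatin and very large proteins, and in 1 of the 12, Akap12, the groups did not overlap. Of all genes tested, 2.25% had all 3 cocaine libraries below all 3 saline libraries. Akap12 (chromosome 10, 4266380 to 4359470), which anchors protein kinase A near beta-adrenergic receptors, was at 10.2, 13.1 and 14.6 CPM in cocaine, against 19, 21 and 20.3 CPM in saline. Every cocaine library was below every saline library, and the log2 difference was -0.69 ± 0.16 (SE; adjusted p = 0.255). The groups of the other 11 overlapped. Their levels in number 1 were lower than in numbers 2 and 3 in both groups, and cocaine was below saline within each number.

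Tet3 (chromosome 6, 83362373 to 83459084), an enzyme that oxidises methylated cytosine, was at 22.2, 161.1 and 120.7 CPM in cocaine and 41.2, 206.7 and 196.2 CPM in saline (-0.65 ± 0.14, SE; adjusted p = 0.24). The histone H3 lysine demethylase Kdm6b was at 31, 188.4 and 113.6 CPM in cocaine and 57.5, 305.1 and 148.1 CPM in saline (-0.66 ± 0.14, SE). Neat1, the noncoding RNA that builds nuclear paraspeckles, was at 0.366, 76.7 and 46.6 CPM in cocaine and 1.84, 100.2 and 100.1 CPM in saline (-0.98 ± 0.21, SE). Each of these was lowest in number 1 of either group. The transcription factors Zfhx4 (-0.69), Onecut2 (-0.80) and Sp1 (-0.67) were also below saline in each number. So were Purg (-0.67), which binds purine-rich DNA, Igf2bp3 (-0.74), which binds mRNA, and Trp53inp1 (-0.85), a stress gene under p53. Ahnak (-0.94), a very large scaffold protein, and Adra1a (-0.67), the alpha-1A adrenergic receptor, completed the 12. DESeq2 with the block called 8 of the 24 named genes, all of them below saline, namely Kdm6b, Zfhx4, Tet3, Sp1, Ahnak, Trp53inp1, Purg and Adra1a. Leaving out number 1, 2 or 3 called 13, 15 or 0 of the 24. Over all genes, DESeq2 called 1 higher and 28 lower of 15892. Leaving out number 1 called 13 higher and 69 lower of 16103 genes. The counts were 20 and 116 of 15943 without number 2, and 3 and 4 of 16096 without number 3. The 24 were ranked by p in these same libraries, so these calls add no support.

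**Figure D2:**
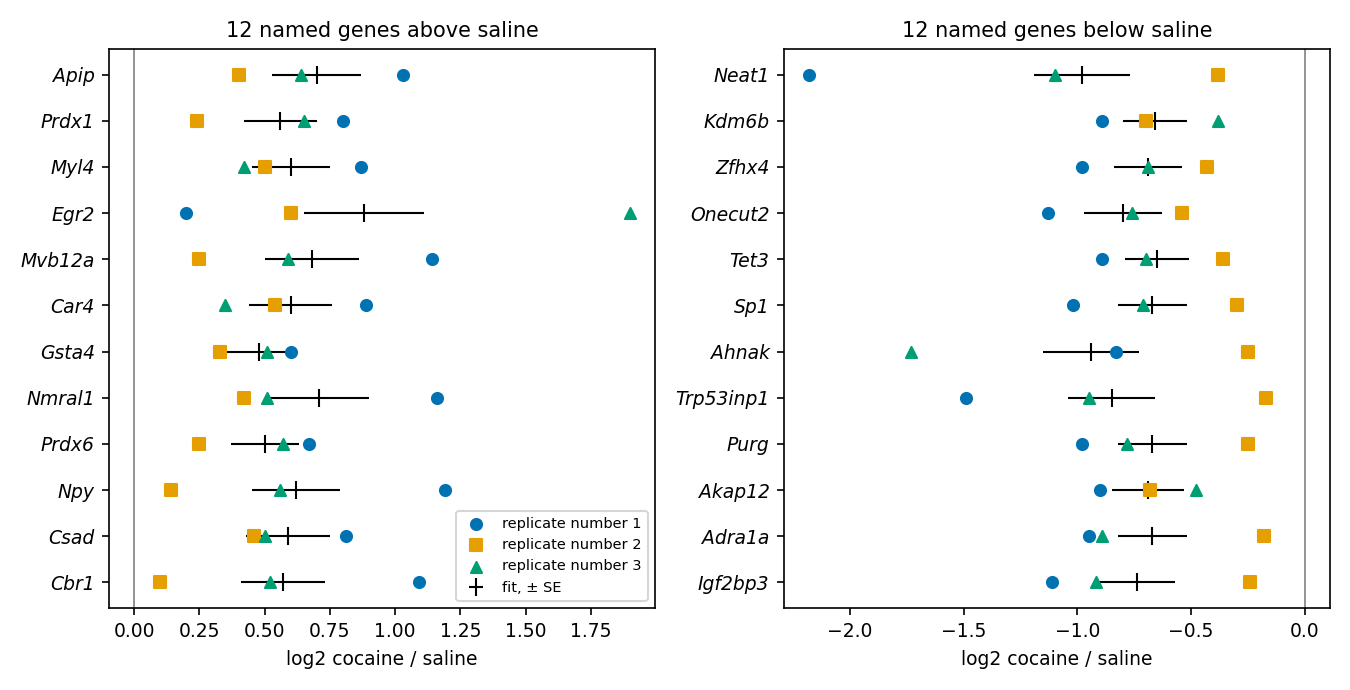
The log2 cocaine over saline difference of each named gene within replicate numbers 1, 2 and 3 (coloured points) and in the fit (black bar, ± SE). All points of the 12 genes on the left lie above 0 and all points of the 12 on the right below 0, which the naming rule required; number 2 gave the smallest difference for most of them.

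Apart from Colgalt2, Bcl11b and Fezf2, the members shown for each list below were picked by lowest p. That favours genes without overlap, so a lack of overlap adds no support for them. Of all genes tested, 3.11% lay above and 2.25% below saline without overlap. Targeted neurons came first among the marker lists. Colgalt2, the driver gene, was at 140.6, 82.8 and 77 CPM in cocaine and 136.6, 85.5 and 103.6 CPM in saline (-0.15 ± 0.14, SE; adjusted p = 0.69). Bcl11b, a transcription factor that specifies these neurons, was at 142.4, 159.3 and 149.8 CPM in cocaine and 285.2, 185.9 and 183.8 CPM in saline. All its cocaine libraries were below all saline libraries (-0.51 ± 0.16, SE; adjusted p = 0.335). Fezf2, a transcription factor of the same neurons, was at 157.8, 57.2 and 55 CPM in cocaine and 147.3, 60.2 and 81.7 CPM in saline (-0.18 ± 0.14, SE), with overlapping groups. Of the 19 layer 5 markers 16 were below saline, 5 of them and 0 of the others at an unadjusted p under 0.05. Over all genes tested, 47.5% were below saline, 6.1% at that threshold. The median log2 difference of the layer 5 list was -0.20 against 0.02 over all genes tested. It was -0.16, -0.05 and -0.29 in numbers 1, 2 and 3, and -0.31 without number 2 and -0.09 without number 3. The natriuretic peptide clearance receptor Npr3 was at 30, 37.3 and 27 CPM in cocaine and 43.3, 42.6 and 44.8 CPM in saline, without overlap. In these immunopurified samples, fewer cells of a type, less RNA per cell and a less pure pull-down cannot be told apart.

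Glial marker lists had medians above saline. Astrocyte markers were above saline in 10 of 12 (median 0.23; 0.12, 0.10 and 0.45 in numbers 1, 2 and 3), with the glutamate transporter Slc1a3 at 42.3, 90.8 and 88.6 CPM in cocaine and 26.8, 79.4 and 64.4 CPM in saline. Without number 3 the list median was 0.08. The yoked libraries showed the same side, with a list median of 0.30 for yoked minus saline and -0.10 for cocaine minus yoked, and Slc1a3 was at 50.4, 107.2 and 78.6 CPM in them. The summed level of the list, in which the transporter Slc1a2 weighs most, was 1037 to 2680 CPM in cocaine and 1040 to 2643 CPM in saline. Slc1a2 itself stood below saline (-0.32 ± 0.15, SE), by -0.60, -0.00 and -0.35 in numbers 1, 2 and 3. Oligodendrocyte markers were above saline in 11 of 12 (median 0.21; 0.32, -0.05 and 0.37 by number), but only 3 in all 3 numbers. The list includes the myelin genes Cnp (0.41, and -0.01 in number 2) and Mog (0.46). It summed to 729.2 to 1892 CPM in cocaine and 616.3 to 1724 CPM in saline. Oligodendrocyte precursor markers were above in 6 of 8 (0.15; 0.45, -0.09 and 0.33 by number), among them the transcription factor Olig2 (0.51). Microglia markers, at most 47.5 CPM in sum in any of the 6 libraries, were above in 11 of 12 (0.47; 0.68, 0.12 and 0.26 by number). Their median was 0.24 without number 1 and 0.31 without number 3, and it was 0.38 for yoked minus saline. The complement gene C1qb was at 3.73, 4.17 and 3.98 CPM in cocaine and 0.766, 3.3 and 3.46 CPM in saline, without overlap. Adjusted p in the glial lists was at least 0.328.

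Interneuron markers were above saline in 10 of 16 (median 0.20; 0.11, 0.03 and 0.44 by number), and without number 3 the median was 0.00. They share Npy, Sst and Vip with the neuropeptides below. Endothelial and mural cell markers went the other way, with 11 of 12 below saline. Of these markers, 5 were below at an unadjusted p under 0.05, against 6.1% of all genes tested. Their median was -0.69, the lowest of the 35 lists, and it was -0.48, -0.52 and -0.56 in numbers 1, 2 and 3. They were scarce, with a sum of 21.4 to 25.1 CPM in cocaine and 28.8 to 31.4 CPM in saline. The adhesion molecule Pecam1 was at 0.756, 1.05 and 0.187 CPM in cocaine and 2.01, 1.29 and 1.17 CPM in saline, without overlap (-1.33 ± 0.47, SE; adjusted p = 0.343), and the transporter Slco1a4 at 4.27, 2.19 and 0.615 CPM in cocaine and 6.25, 3.44 and 3.09 CPM in saline. Nuclear noncoding RNAs were below saline in 7 of 8 (median -0.43). The difference was in numbers 1 and 3 (-0.47 and -0.60) and not in number 2 (0.04), and Malat1 alone was at 102.0, 4076 and 1559 CPM in cocaine and 215.5, 3549 and 4331 CPM in saline. The list median was -0.28, -0.71 or -0.20 without number 1, 2 or 3. The other lists had medians of -0.10 (layer 2 to 4 neurons), 0.09 (layer 6), 0.08 (striatal projection neurons), -0.05 (hippocampal and thalamic neurons) and -0.14 (5 tested of 8 choroid plexus and ependyma markers, of which Folr1, Otx2 and Aqp1 did not pass the filter). Whether these shifts in markers of purity and of other cells had a part in the differences of other genes was not tested.

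Immediate early genes, which neurons switch on within minutes of activity, were above saline in 16 of 22. At an unadjusted p under 0.05 were 7 of them and 0 of those below, against 5.71% of all genes tested above saline and 6.1% below. The median log2 difference of the list was 0.09, and it was 0.01, 0.17 and 0.33 in numbers 1, 2 and 3. Without number 1, 2 or 3 it was 0.26, 0.04 or 0.05. Egr2, a zinc finger transcription factor (chromosome 10, 67535475 to 67542188), was at 8.69, 25.2 and 18.5 CPM in cocaine and 7.53, 16.6 and 4.91 CPM in saline (0.88 ± 0.23, SE; adjusted p = 0.321). Cocaine was above saline in each number, by 0.20, 0.60 and 1.90 on the log2 scale, but the groups overlapped. Arc, which acts on AMPA receptor endocytosis at synapses, was at 51.9, 72.3 and 46.9 CPM in cocaine and 41.8, 55.3 and 29.8 CPM in saline (0.45 ± 0.13, SE), also above saline within each number. In yoked it was at 57.7, 91.9 and 39.7 CPM, above cocaine in numbers 1 and 2, with a log2 difference of -0.09 for cocaine minus yoked and 0.54 for yoked minus saline. Ier5 (0.49 ± 0.14, SE) and Ier2 (0.70 ± 0.23, SE), both early response regulators, were likewise above saline in each number.

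Glucocorticoid response genes were above saline in 11 of 14 (median 0.13), among them the metallothionein Mt2 (0.39) and the mTORC1 inhibitor Ddit4 (0.40). The transcription factor Zbtb16 was an exception, at 20.4, 43.7 and 39 CPM in cocaine and 34.3, 47.5 and 54.2 CPM in saline (-0.45 ± 0.14, SE; adjusted p = 0.343). Circadian clock genes split into 7 above and 9 below, with a median of -0.01 that became 0.01 when libraries were scaled by their totals. The clock repressor Cry1 was at 31.1, 29.7 and 37.6 CPM in cocaine and 22.4, 25.2 and 24.1 CPM in saline, without overlap (0.45 ± 0.14, SE; adjusted p = 0.341). It was the only 1 of the 16 clock genes without overlap.

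Neuropeptide precursor genes were above saline in 16 of 18. Of the 16, 8 had an unadjusted p under 0.05, against 5.71% of all genes tested. The list median of 0.40 came from numbers 1 (0.86) and 3 (0.34) more than from number 2 (0.02), and it was 0.18 without number 1. Npy (neuropeptide Y) was at 22.9, 36.7 and 44.5 CPM in cocaine and 10, 33.2 and 30.2 CPM in saline (0.62 ± 0.17, SE; adjusted p = 0.325). Sst (somatostatin), like Npy a peptide of inhibitory interneurons, was at 37.5, 60.6 and 79 CPM in cocaine and 21.7, 59.8 and 46.8 CPM in saline (0.52 ± 0.15, SE). Vip, a peptide of another interneuron class, was at 16.2, 16.1 and 22.7 CPM in cocaine and 7.42, 15.6 and 14.5 CPM in saline, without overlap (0.60 ± 0.18, SE). Cort (cortistatin), also without overlap, was scarcer at 1.93, 1.31 and 2.81 CPM in cocaine and 0.594, 1.08 and 1.01 CPM in saline. Interneurons are not the cells the tag targets.

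Cartpt, the cocaine- and amphetamine-regulated transcript named for its response to these drugs in rat striatum, lies outside the naming rule and was chosen after its values were seen. It was at 5.47, 4.25 and 4.84 CPM in cocaine, against 3.07, 3.23 and 3.04 CPM in saline, and at 3.47, 4.11 and 2.79 CPM in yoked. The cocaine libraries lay above every saline and every yoked library, the latter narrowly (4.25 CPM in cocaine replicate 2 against 4.11 CPM in yoked replicate 2). Of all genes tested, 3.11% had all 3 cocaine libraries above all 3 saline libraries. The share that also lay above yoked was not counted. As the gene was chosen on these values, the lack of overlap adds no support. The log2 difference from saline was 0.64 ± 0.23 (SE; adjusted p = 0.343).

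The promoters of Cartpt and Sst are shown because both hold the full cAMP response element, the palindrome TGACGTCA that the transcription factor CREB binds in textbook examples, Sst being the classic one. They are the only 2 of the 14 neuropeptide genes with a RefSeq promoter window that hold it in the 250 bases before the start site. Both sequences are from RefSeq on GRCm38.p6, run 5′ to 3′ on the minus strand and end at the base before the start site, and capitals mark the element. The Cartpt window is chr13:99900684-99900933 and the Sst window chr16:23890845-23891094.
Cartpt: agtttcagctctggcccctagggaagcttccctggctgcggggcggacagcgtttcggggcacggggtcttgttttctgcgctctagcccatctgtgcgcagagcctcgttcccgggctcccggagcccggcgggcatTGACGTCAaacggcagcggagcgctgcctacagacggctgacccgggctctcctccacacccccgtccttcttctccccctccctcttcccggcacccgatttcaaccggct
Sst: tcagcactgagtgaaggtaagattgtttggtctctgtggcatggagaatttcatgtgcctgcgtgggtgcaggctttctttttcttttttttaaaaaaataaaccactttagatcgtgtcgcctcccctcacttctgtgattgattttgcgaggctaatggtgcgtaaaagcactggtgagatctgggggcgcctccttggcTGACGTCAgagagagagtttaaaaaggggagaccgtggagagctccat
The element lies 104 bases before the start site of Cartpt and 40 before that of Sst. It was found in 508 of all 32851 windows of this length (1.55%) and in 2.5% of the windows of tested genes. Counted by gene, 1.77% of all genes with a window and 3% of tested genes held it. Among immediate early genes, 2 of 18 with a window held it, Btg2 and Dusp1. The 335 tested genes with the element had a median log2 difference of 0.05 and the 10834 without it 0.03. A match is a description of these bases and says nothing about CREB binding in these samples.

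**Figure D3:**
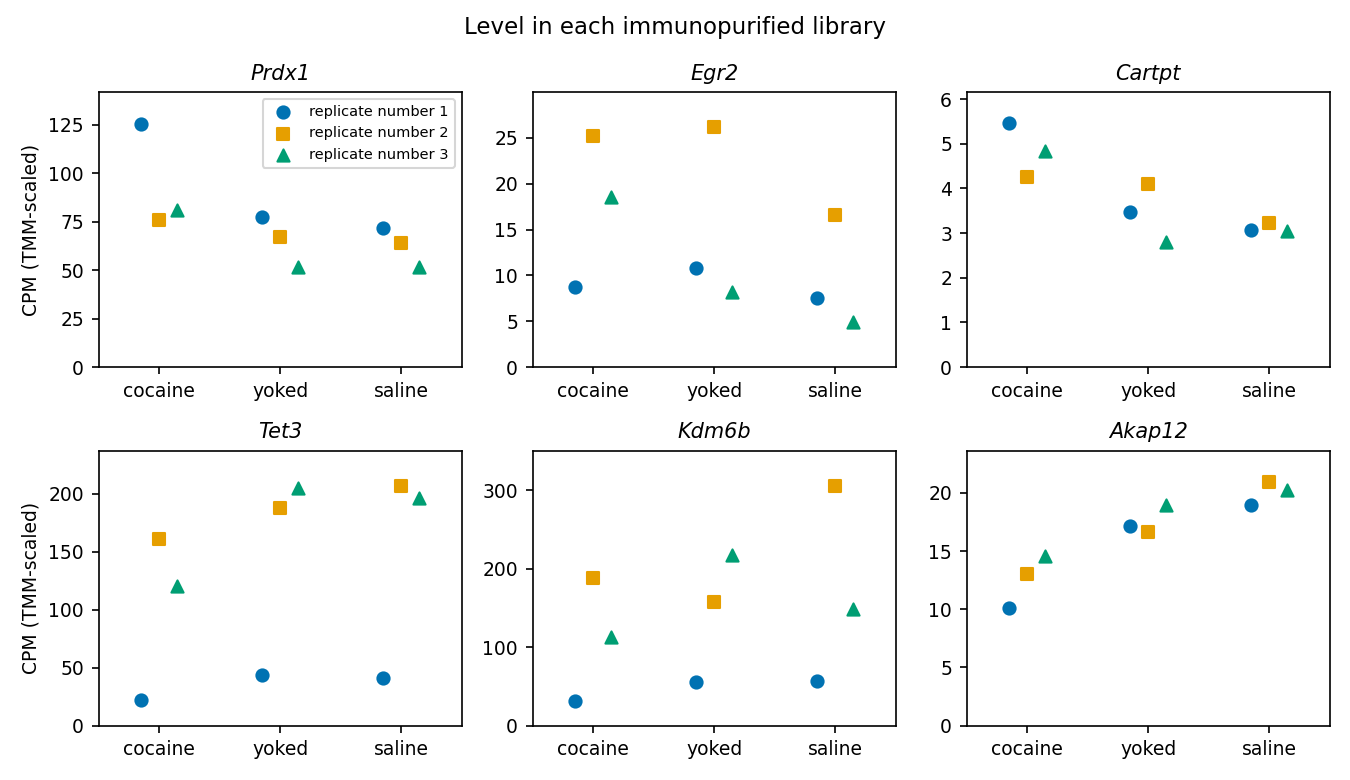
Level (CPM, TMM-scaled) of 6 genes in each cocaine, yoked and saline library, coloured by replicate number. Prdx1, Cartpt and Akap12 do not overlap between cocaine and saline, whereas Egr2, Tet3 and Kdm6b do, and the levels of these 3 also differ between replicate numbers.

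Receptor and channel gene lists had medians below saline, and the difference was largest in number 1. Without number 1 the median was -0.15 for glutamate receptors, -0.05 for GABA receptors, -0.10 for sodium and calcium channels, -0.05 for potassium and HCN channels, -0.07 for scaffold and adhesion genes and -0.02 for vesicle release genes. By number, potassium and HCN channels were at -0.38, -0.05 and -0.10. Glutamate receptor genes were below in 18 of 22 tested of 23 (median -0.18), 4 of them at an unadjusted p under 0.05. At that threshold, 6.1% of all genes tested were below saline. The NMDA receptor subunit Grin2b was at 100, 223.0 and 178.5 CPM in cocaine and 170.5, 246.9 and 306.9 CPM in saline (-0.57 ± 0.15, SE; adjusted p = 0.321), below saline in each number although the groups overlapped. Grin2a, another NMDA receptor subunit of adult forebrain, was at 19.6, 40.3 and 30.8 CPM in cocaine and 30.9, 40.1 and 48.2 CPM in saline (-0.43 ± 0.15, SE), with no difference of that direction in number 2. GABA receptor genes were below in 12 of 14 (-0.14). The GABA-A subunit Gabrb2 was at 258.0, 289.8 and 257.9 CPM in cocaine and 402.6, 310.8 and 294.4 CPM in saline, without overlap (-0.31 ± 0.15, SE; adjusted p = 0.412).

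Potassium and HCN channel genes were below saline in 26 of 36 (median -0.18). At an unadjusted p under 0.05 were 10 of them and 1 of those above, against 6.1% of all genes tested below and 5.71% above. Kcna4, which carries a fast inactivating current, was at 23.2, 38.1 and 33.3 CPM in cocaine and 31.8, 52.1 and 49.1 CPM in saline (-0.49 ± 0.13, SE; adjusted p = 0.325). Every cocaine library was below the saline library of the same number, but the groups overlapped. The leak channel Kcnk1 stood on the other side, at 89, 66.7 and 74 CPM in cocaine and 61.2, 58 and 55.5 CPM in saline, without overlap (0.38 ± 0.13, SE). Sodium and calcium channel genes were below in 21 of 26 (-0.18), among them the sodium channel Scn2a1 (-0.36). Scaffold and adhesion genes were below in 25 of 29 (-0.17), among them Homer2 (-0.49) and Shank2 (-0.42), which link glutamate receptors to the cytoskeleton. Vesicle release genes were below in 17 of 26 (-0.06), with the active zone protein Pclo at -0.44.

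Dopamine receptor and cAMP signalling genes, which act downstream of the dopamine that cocaine keeps at the synapse, were split into 10 above and 12 below saline among 22 tested of 24 (median -0.09). Adcy1, a calcium-stimulated adenylyl cyclase, was at 187.8, 628.9 and 533.0 CPM in cocaine and 296.3, 745.0 and 754.2 CPM in saline (-0.47 ± 0.14, SE; adjusted p = 0.335). Creb1, the gene for CREB, was at 68.2, 255.6 and 183.8 CPM in cocaine and 104.2, 247.3 and 279.4 CPM in saline (-0.39 ± 0.15, SE), above saline in number 2 only. Receptors for monoamines, acetylcholine and opioids had 19 of 30 below (-0.07), and Adra1a, described above, had the lowest p among them. Calcium and calmodulin kinase genes had 11 above and 10 below (0.00), with the kinase Camk1 at 0.46.

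Chromatin enzymes linked to cocaine in rodents were below saline in 12 of 20 (median -0.12), 5 of them at an unadjusted p under 0.05. At that threshold, 6.1% of all genes tested were below. All 3 genes for enzymes that oxidise methylated cytosine stood below saline within each replicate number. Tet2 was at 17.9, 192.3 and 119.5 CPM in cocaine and 37.2, 215.1 and 209.1 CPM in saline (-0.67 ± 0.16, SE; adjusted p = 0.275). Tet1 was at 12.7, 122.2 and 77.2 CPM in cocaine and 20.4, 137.2 and 135.8 CPM in saline (-0.56 ± 0.14, SE; adjusted p = 0.321). With Tet3 at -0.65, the differences were of like size in the 3 genes. Like Neat1 and Malat1, all 3 had their lowest level in number 1 of each group.

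Genes of protein turnover and energy metabolism leaned above saline. Proteasome subunit genes were above in 31 of 31 (median 0.29), 26 of them in all 3 replicate numbers and 18 at an unadjusted p under 0.05. Of all genes tested, 52.5% were above saline, 19% in all 3 replicate numbers and 5.71% at that threshold. The proteasome median was 0.19 without number 1. The core subunit gene Psma5 was at 111.8, 42.9 and 49.6 CPM in cocaine and 74.7, 33.3 and 39.9 CPM in saline (0.42 ± 0.13, SE; adjusted p = 0.34), above saline in each number. Respiratory chain and ATP synthase genes were above in 73 of 75 (0.28). Their medians by number were 0.74, 0.13 and -0.07, so number 1 carried the difference, and the ATP synthase gene Atp5c1 was at 882.5, 311.6 and 345.5 CPM in cocaine and 449.1, 284.8 and 279.7 CPM in saline. Cytosolic ribosomal protein genes were above in 73 of 78 (0.30; 0.82, 0.12 and -0.02 by number), with Rps10 and Rps14 both at 0.63. Without number 1 the medians of these last lists were 0.05 and 0.05.

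Glycolysis genes were above saline in 15 of 16 (median 0.24; 0.37, 0.11 and 0.25 by number). Aldoc, the aldolase of brain and an astrocyte marker, was at 468.3, 393.1 and 472.9 CPM in cocaine and 280.5, 347.7 and 305.7 CPM in saline, without overlap (0.51 ± 0.15, SE; adjusted p = 0.328). Ldha, a lactate dehydrogenase subunit, was at 645.6, 200.5 and 238.2 CPM in cocaine and 365.0, 168.6 and 184.1 CPM in saline (0.48 ± 0.15, SE), above saline in each number. Endoplasmic reticulum stress and heat shock genes were above in 21 of 26 (0.14), among them Herpud1 (0.40) and the chaperone Dnajb1 (0.32). Cholesterol synthesis genes were above in 13 of 19 (0.08), with Fdps at 0.46 and Mvd at 0.48. Interferon response genes were above in 10 of 14 (0.13), 0 of them at an unadjusted p under 0.05.

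**Figure D4:**
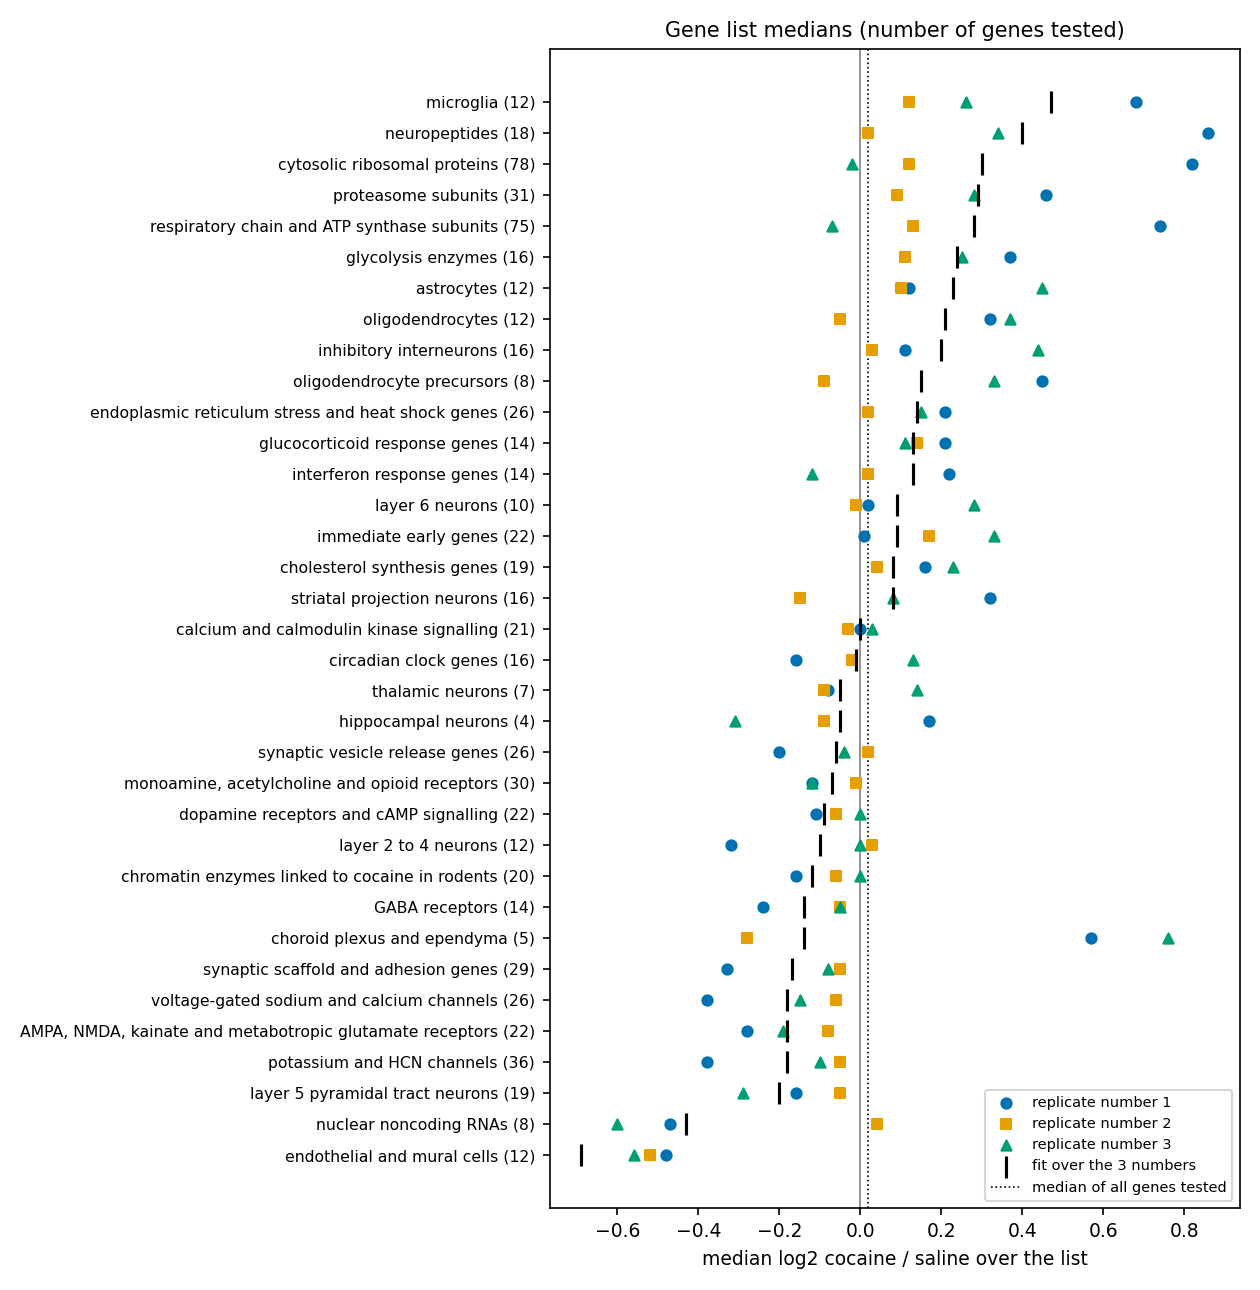
Median log2 cocaine over saline difference of each of the 35 gene lists, within replicate numbers 1, 2 and 3 (coloured points) and in the fit (black bar), with the number of genes tested in brackets. Numbers agree in side for endothelial markers and for proteasome genes and diverge for ribosomal protein and respiratory chain genes, where number 1 lies far from number 3.

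The summed exon length of a gene moved with the difference. It counts every base in any annotated exon of the gene, so it can exceed the length of a transcript. Across the 14202 tested genes with an exon length in GENCODE (89.4%), Spearman's rho between length and log2 difference was -0.41. It was -0.48, -0.15 and -0.11 in numbers 1, 2 and 3; genes are not independent replicates and share their libraries. In the shortest decile of genes (216 to 1769 bases) the median was 0.23 and 78% were above saline, and in the longest (9928 to 123179 bases) it was -0.18 and 18.4% were above. The 12 named genes above saline had a median exon length of 3060 bases and the 12 below 8495. With a length trend removed from each library, 0 genes were called. The list median was then 0.13 for respiratory chain genes (0.28 before), 0.15 for ribosomal protein genes (0.30 before), 0.22 for neuropeptides (0.40 before) and -0.07 for scaffold genes (-0.17 before). For chromatin enzymes it was 0.01 (-0.12 before). It was 0.19 for proteasome genes, 0.21 for glycolysis genes, -0.61 for endothelial markers, 0.39 for microglia markers and -0.15 for layer 5 markers. Not all lists moved toward 0. Cholesterol synthesis genes went to 0.16 (0.08 before) and oligodendrocyte markers to 0.26 (0.21 before). Receptors for monoamines, acetylcholine and opioids went to -0.09 (-0.07 before).

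**Figure D5:**
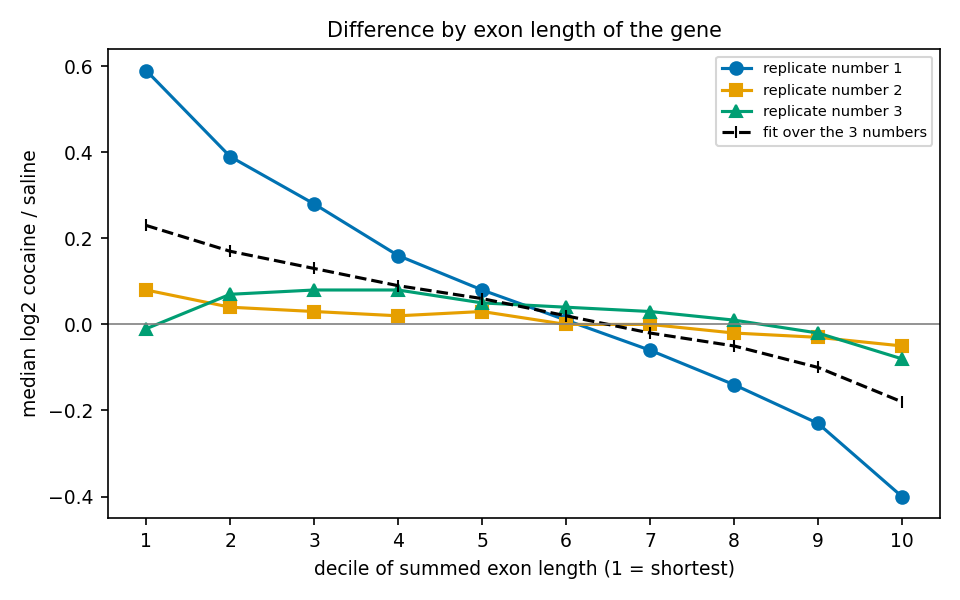
Median log2 cocaine over saline difference in 10 equal groups of genes ordered by summed exon length, shortest on the left, for each replicate number and for the fit. The slope is steepest in number 1, which runs from 0.59 in the shortest to -0.40 in the longest decile.

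The yoked libraries allow the cocaine group to be set against a second control. Over the 9 IP libraries with the block, edgeR called 0 of 16417 genes between cocaine and yoked (0%), with 3006 at an unadjusted p under 0.05 (18.3%) and a lowest adjusted p of 0.13. DESeq2 called 631, and edgeR called 510 once the libraries numbered 2 were left out. Both comparisons share the cocaine libraries, so their values are not independent. For the 12 named genes above saline the log2 difference from yoked ran from 0.29 to 0.80, and for the 12 below from -1.10 to -0.49. For yoked against saline, the same genes ran from -0.08 to 0.62 and from -0.19 to 0.22. Prdx1 was at 77.5, 67 and 51.6 CPM in yoked, and its cocaine libraries overlapped these only through cocaine replicate 2. Egr2 was at 10.8, 26.2 and 8.2 CPM in yoked, close to cocaine in numbers 1 and 2. Bcl11b was at 215.8, 129.9 and 158.7 CPM in yoked, and the log2 difference was -0.12 for cocaine minus yoked, against -0.51 for cocaine minus saline.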

How the data were processed

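Each library has 1 file of raw counts by gene symbol, as deposited. These counts were made by the authors by alignment to mm10 with STAR 2.0.0e and counting with HTSeq, per the submitters' processing notes; the sources used here give no annotation or strand setting, and overlapping and antisense genes may share reads. Reads aligned to several places are not in gene counts, which lowers paralogs such as ribosomal protein genes. They made up 35.8% to 47% of all entries in cocaine and 35.6% to 40.6% in saline. Entries that name no gene were left out.

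The 6 libraries were fitted in edgeR 4.0.16 (R 4.3.3; limma 3.58.1) with group and replicate number as terms, TMM scaling, filterByExpr, robust quasi-likelihood and Benjamini-Hochberg adjustment over 15892 genes at 0.05. Same-numbered cocaine and saline libraries deviated together from their group means (correlations of 0.785, 0.653 and 0.41). These values set number 1 apart but do not show that numbers 2 and 3 are paired. Cocaine replicate 2 also correlated with saline replicate 3 (0.557). Cocaine replicate 3 correlated more with saline replicate 2 (0.496) than with saline replicate 3. The block follows the labels. The SE of a log2 difference is its size over the square root of F. Levels are TMM-scaled CPM over the 9 IP libraries, computed here, and differences within a number use a prior count of 2. The yoked contrast used those 9 libraries with the block. Positions and exon lengths are from GENCODE M21 on GRCm38, the assembly of mm10. The test was tried on simulated counts of 15625 genes.

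Genes were named by a rule: Colgalt2, Bcl11b and Fezf2; the 12 of lowest p in each direction with an established symbol, at least 5 CPM and the same direction in 3 replicate numbers; and up to 4 members of lowest p per list. Before the last named gene, 3 genes above and 5 below saline without an established symbol were passed over. Members, lists and tests were chosen with earlier results of these data known. Lists are described by counts and medians, with no set test. Alternatives were DESeq2 1.42.0, other scalings and filters, a length correction, fits without the block and fits without each replicate. Counts carry no molecular identifiers and include PCR copies. Input and unbound libraries entered no comparison; the input set the marker ratios.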

Additional observations from a re-analysis of the deposited data

How the results depend on the processing

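The count of 0 called genes between cocaine and saline held with no replicate block, with the yoked libraries in the fit, with DESeq2's size factors or library totals as scaling, with the ribosomal RNA precursor Rn45s left out, with the length trend removed, at a mean of at least 5 CPM, and without any single library when no block was used. Without the block, 56 genes stood above and 34 below saline at an unadjusted p under 0.05, and the lowest adjusted p was 0.999. DESeq2 with the block called 1 higher and 28 lower over the 6341 genes to which it gave an adjusted p. Without its independent filtering, an alternative chosen after seeing the data, it called 0 higher and 7 lower. With no expression filter edgeR called 28 higher and 84 lower. Without 1 replicate number the range was 3 to 20 higher and 4 to 116 lower. Between cocaine and yoked, DESeq2 called 631 genes, and leaving out 1 replicate number gave 0 to 510. The cause of these differences between tools and libraries was not tested.

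For 71 genes followed through 20 alternatives, 17 of 1413 values changed direction, in 12 genes, and 85 passed the threshold that the reported value had missed. In 16 of the 17, a single library was left out without the block, so that the replicate numbers were unequal between the groups. Without cocaine replicate 1, the log2 difference was 0.03 for Tet1, 0.02 for Tet2 and Homer2, 0.06 for Creb1 and Malat1, -0.09 for Psma5, -0.24 for Rps14, -0.04 for Atp5c1 and -0.12 for Ldha. Without saline replicate 1 it was 0.08 for Colgalt2 and 0.34 for Fezf2, without saline replicate 2 it was 0.08 for Kdm6b, and without saline replicate 3 it was 0.02 for Malat1. Without cocaine replicate 2 it was 0.11 for Fezf2, and without cocaine replicate 3 it was 0.13 for Fezf2 and 0.02 for Colgalt2. With the block and both libraries of a number left out, Fezf2 ran from -0.32 to 0.01. Of 699 list medians, 71 moved by more than the spread between replicate numbers. For genes near 1 CPM, such as microglia and endothelial markers, few counts limit the precision.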
